A study of Mus musculus and Rattus norvegicus with 4 samples.

Results

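Extracellular matrix genes were examined for nearby MEF2A peaks in C2C12, an established mouse skeletal myoblast line. The 50 genes were listed by name out of 21883 protein-coding genes on placed chromosomes. They were collagens, laminins, matrix glycoproteins, proteoglycans, crosslinking enzymes and enzymes of matrix turnover. The list was chosen with earlier results of these data known, so its counts are not independent of the peaks. All 50 symbols were found in the gene table. The cells had spent 48 h in differentiation medium with 2% horse serum before MEF2A was immunoprecipitated and mapped by ChIP-exo, in which an exonuclease trims the bound DNA to the edge of the protein. The series holds 4 libraries, MEF2A and normal rabbit IgG from C2C12 and from primary rat cardiomyocytes, and only the peak list of the MEF2A library of C2C12 was used here. There was 1 library per group, with no replicate error, so no test was made and every value describes this library. Read depth is unknown, and the list holds no expression values, so the myoblast label was not checked against marker genes.

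MEF2A is a DNA-binding factor of the MEF2 family, which activates muscle genes during differentiation, often from enhancers far from the gene. The extracellular matrix around a muscle fibre has a basement membrane of type IV collagen, laminin and nidogen, to which the fibre is anchored, and outside it an interstitial matrix of fibrillar collagens, fibronectin, proteoglycans and hyaluronan. Fibroblasts make most of the interstitial matrix in muscle, and myoblasts also secrete collagens, laminins and fibronectin.

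MEF2A peaks lay near many of these genes, and most of the peaks were weak. A peak counted for the closest protein-coding gene span, from the first to the last annotated base, up to 100 kb away. Of the 50 matrix genes 22 (44%) had at least 1 peak, against 7.72% of all protein-coding genes (1690 of 21883). The 28 others had none. Genes with a long territory, the stretch of genome whose peaks would be assigned to the gene, collect more peaks, and the matrix genes had a median territory of 138 kb against 45.8 kb over all genes. When each matrix gene was given the share found among all genes of its class of territory length, in 10 classes, 6.79 of the 50 (13.6%) would have had a peak. The observed count was 3.24 times this number, in a list chosen with earlier results of these data known. For 172 other genes of matrix and related families, described below and called other matrix genes here, the ratio was 1.14. Assignment by proximity does not show that MEF2A regulates a gene.

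In all, 34 peaks were assigned, with 15 genes holding 1 peak and 7 holding several. Those 7 were 31.8% of the matrix genes with a peak, near the 25.3% among all genes with a peak. Peaks are ranked here by the authors' own score, taken here as higher for a stronger peak and starting just above 50 in this list of 2797 peaks. The median score of the 34 peaks was 62.6 (quartiles 56.6 and 95.9), against 77.0 (quartiles 59.1 and 138.8) for all peaks. Scores below 70 were held by 22 of the 34 peaks (64.7%) and by 43.2% of all peaks. The lower scores went with a narrower width, a median of 124.5 bp against 144 bp over all peaks. Only Matn2 (2277) and Postn (763) had a peak of 200 or more, and those 2 peaks ranked 3 and 50 in the list. Scores of 200 or more were thus held by 5.88% of the 34 peaks, against 15.2% of all peaks. For 100 or more the shares were 23.5% and 36.8%.

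**Figure D1:**
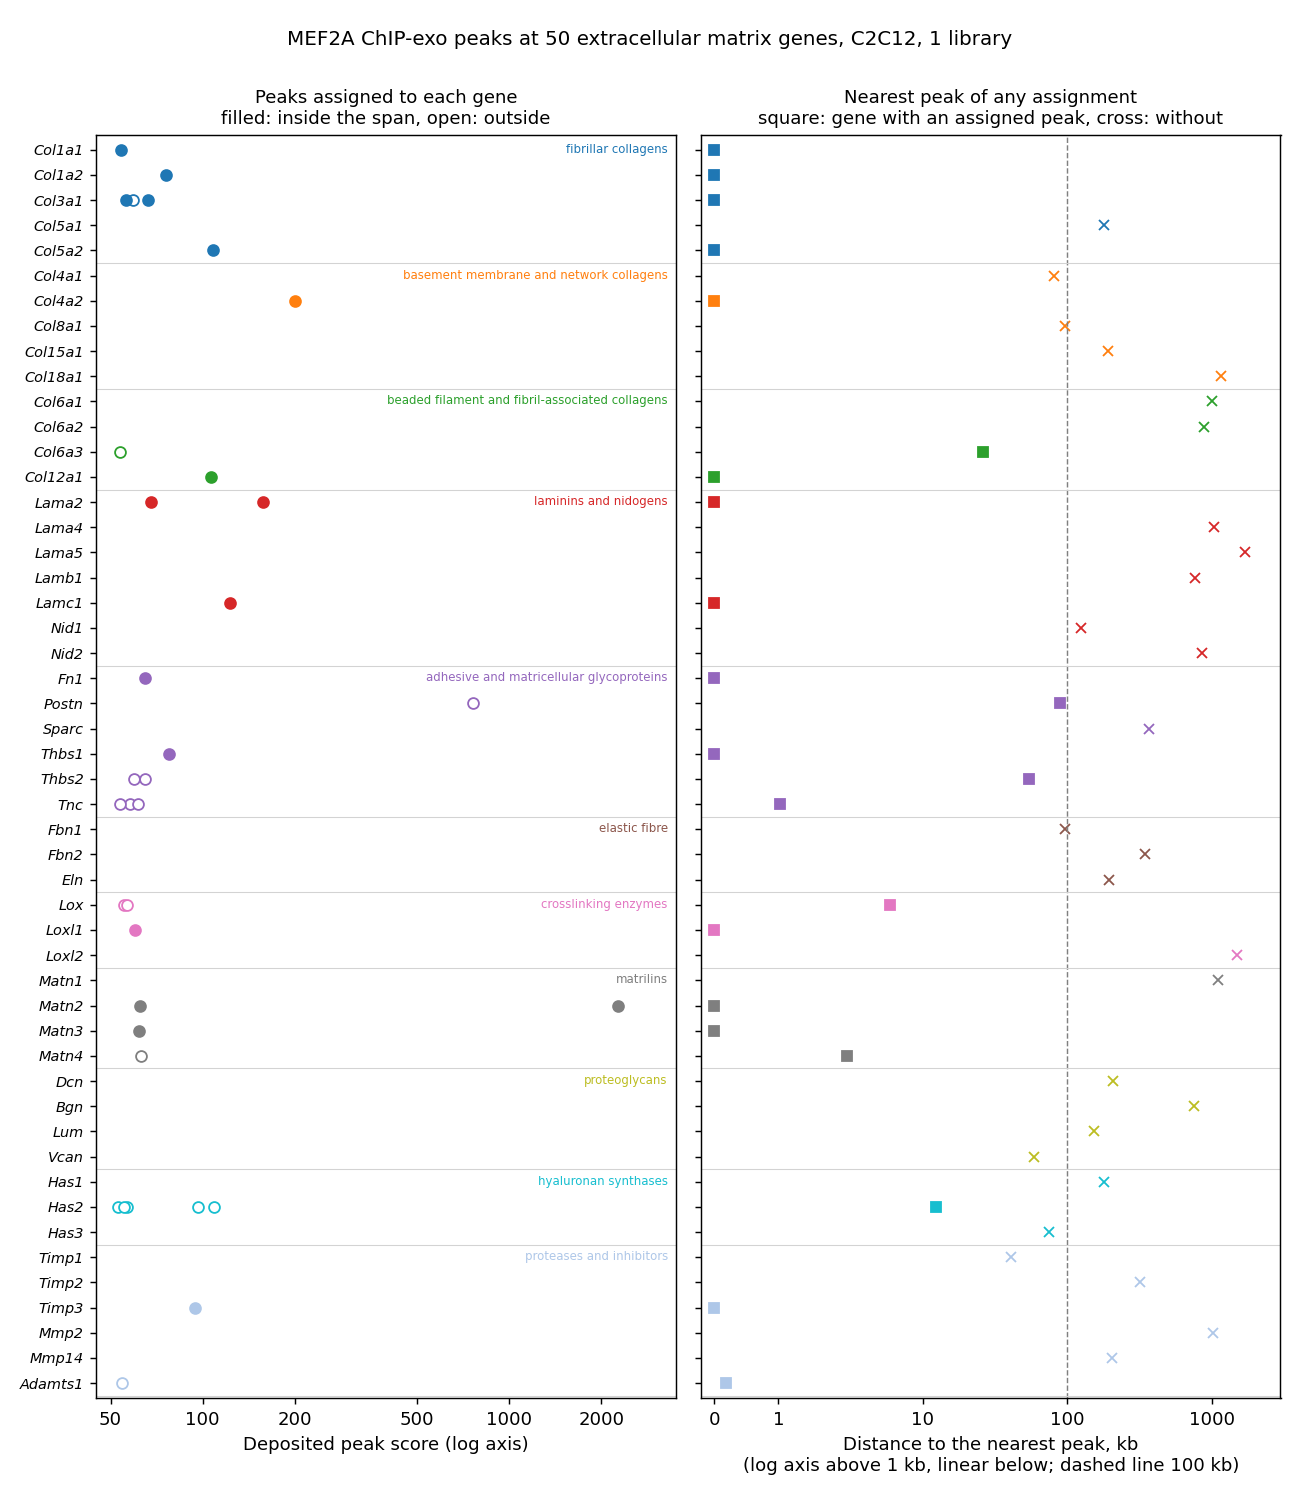
Scores of the peaks assigned to each of the 50 genes (left, log axis, filled symbols inside the gene span and open symbols outside) and the distance from each span to the nearest peak of any assignment (right, kb). Most symbols on the left sit between 50 and 110, with Matn2 and Postn far to the right, and 28 genes have a cross on the right and no symbol on the left.

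The excess over the territory-based number was smaller among stronger peaks. With scores from 100 upward, 8 of the 50 (16%) had an assigned peak, against 3.46% of all protein-coding genes. From territory 3.15 were expected, a ratio of 2.54. These genes were Matn2, Postn, Col4a2, Lama2, Lamc1, Has2, Col5a2 and Col12a1. At 200 or more the count was 2 (4%), against 1.52% of all genes and 1.41 expected, a ratio of 1.42. Col4a2, at 199.5, fell just short of this limit. Among genes with any peak, the highest score had a median of 71.2 in the matrix genes and 88.6 over all genes.

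**Figure D2:**
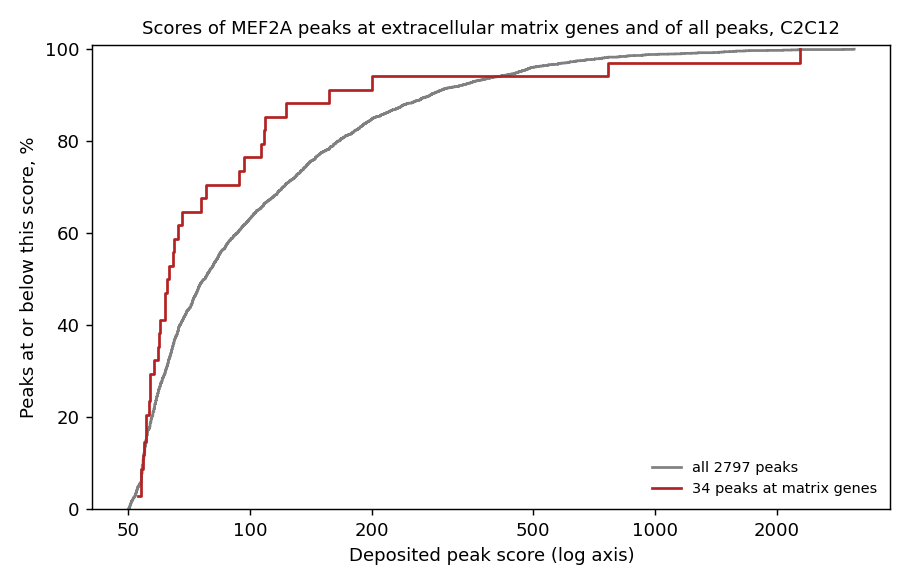
Share of peaks (%) at or below each deposited score (log axis) for the 34 peaks at matrix genes and for all 2797 peaks of the list. The red line lies above the grey one between scores of about 60 and 200, where the median is 62.6 for the matrix genes and 77.0 for all peaks, and crosses it among the strongest peaks.

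Fibrillar collagens, which form the tensile fibrils of interstitial matrix, had peaks at 4 of 5 genes, against 0.894 expected from territory. Col1a1 and Col1a2 encode the chains of type I collagen. The single Col1a1 peak (chromosome 11, 94937143 to 94937305, mm10 as are all positions here) began 919 bp from the lower end of the span and scored 54.3. The single Col1a2 peak (chromosome 6, 4530867 to 4531014) lay inside the span, 25.2 kb from the annotated start site, and scored 75.8. Both type I genes therefore had a peak within the gene, and both peaks were below the median score of the list.

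Start sites were known for 31 of the 50 genes, which carried 18 of the 34 peaks. Thbs1 and Col1a1, with peaks within 1 kb of an end of the span, were not among the 31. Of the 31, Col3a1, the type III collagen gene, was 1 of the 2 with a peak within 2 kb of a start site. Its start site is shown for that reason. The peak (chromosome 1, 45311586 to 45311705, score 66.5) began 48 bases downstream of the Col3a1 start site at 45311538. Col3a1 had other peaks on both sides of this position, one of score 59.4 at 9.84 kb upstream (45301595 to 45301694) and one of 56.2 at 3.07 kb into the gene (45314611 to 45314732). The 250 bases before the start, on the plus strand at chr1:45311288-45311537, are given from RefSeq (GRCm38.p6) in lower case because no motif searched for in this work occurs in them.
Col3a1: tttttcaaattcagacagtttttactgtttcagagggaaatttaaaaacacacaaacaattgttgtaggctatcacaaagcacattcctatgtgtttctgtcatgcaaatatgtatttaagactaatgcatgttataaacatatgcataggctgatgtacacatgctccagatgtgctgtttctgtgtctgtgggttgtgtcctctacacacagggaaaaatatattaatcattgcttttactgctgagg

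Col5a2, encoding a type V chain that regulates fibril diameter, is the neighbour of Col3a1, 24.6 kb away. It contained a stronger peak of score 108.1 (chromosome 1, 45495127 to 45495339), 7.94 kb from the upper end of its span. The 3 Col3a1 peaks lay 59.6 to 72.6 kb from Col5a2, so the pair shares a neighbourhood with 4 peaks in all. Col5a1, which encodes the partner chain, had no peak, and the nearest was 179.6 kb away.

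Basement membrane and network collagens had a peak at 1 of 5 genes, close to the 0.958 expected. It lay inside Col4a2 (chromosome 8, 11393586 to 11393972, score 199.5), 80.8 kb from the start site, and ranked 425. Col4a1 and Col4a2 encode the partner chains of type IV collagen and are transcribed away from each other from spans that overlap by 85 bp, so the same peak is 80.7 kb from Col4a1. The nearest-span rule gives it to Col4a2. A second peak near the pair (score 86.7), 14.4 kb beyond Col4a2, lay inside Rab20. No peak was assigned to Col8a1 (nearest 97.1 kb, score 57.8, inside Cmss1 and Filip1l), to Col15a1 (191.5 kb) or to Col18a1 (1155 kb), which encode a short-chain collagen and the collagens from which restin and endostatin are cut.

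Beaded filament and fibril-associated collagens had peaks at 2 of 4 genes, against 0.563 expected. Type VI collagen, a beaded filament that links the basement membrane to the interstitial matrix, had 1 weak peak over its 3 genes. The peak lay 26.1 kb downstream of Col6a3 (chromosome 1, 90740647 to 90740765) and scored 53.9. The noncoding gene Gm41918 was nearer to it, at 17997 bp. A peak of 84.5 at 52.7 kb on the other side of Col6a3 was nearer to Mlph. Col6a1 and Col6a2 lie 85.2 kb apart on chromosome 10, and Col18a1 lies 326.1 kb beyond Col6a1. The nearest peak was 891 kb from Col6a2 and 1004 kb from Col6a1. These 3 genes thus share a stretch with no peak and are not separate observations of its absence. Col12a1, whose product coats collagen fibrils, contained a peak of score 106.5 (chromosome 9, 79677136 to 79677288).

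Laminins and nidogens, the other structural proteins of the basement membrane, had peaks at 2 of 7 genes, against 1.18 expected. Lama2 encodes the alpha chain of the main muscle laminin and is mutated in a congenital muscular dystrophy. Its span of 635.9 kb is the longest of the 50, and it held a peak of score 156.8 (chromosome 10, 27447900 to 27448097) 168.8 kb from the start site and one of 67.8 at 238.4 kb (27378362 to 27378506). Both were so deep inside the span that neither was within 100 kb of a gene end, so the gene drops out when distance is measured to gene ends. Lamc1, the gamma chain gene, contained a peak of 122.4 (chromosome 1, 153292202 to 153292454).

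The remaining genes of this group had no peak. The nearest peak was 125.4 kb from Nid1, 770.3 kb from Lamb1, 852.1 kb from Nid2, 1042 kb from Lama4 and 1703 kb from Lama5. Lamb1 encodes the beta chain that pairs with the products of Lama2 and Lamc1, so 2 of the 3 genes of that trimer had a peak.

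Adhesive and matricellular glycoproteins had peaks at 5 of 6 genes, against 0.886 expected. Fn1 encodes fibronectin, which cells bind through integrins, and held a peak of score 64.9 inside its span (chromosome 1, 71610646 to 71610761). Postn encodes periostin, a matricellular protein of healing and fibrotic tissue. Its peak scored 763 and was 443 bp wide (chromosome 3, 54480268 to 54480710), but it lay 89.2 kb downstream of the gene. The nearest annotated feature of any kind was the pseudogene Gm5641 at 705 bp, so this peak belongs to Postn only when protein-coding spans alone are considered. Sparc, which encodes a collagen-binding glycoprotein, had no peak within 366.4 kb.

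Thrombospondins and tenascin C are matricellular proteins that modulate cell adhesion. Their peaks scored from 53.9 to 77.8, and only that of Thbs1 was above the list's median of 77.0. The Thbs1 peak (chromosome 2, 118111887 to 118111996, score 77.8) began 11 bp inside the lower end of the span. The Thbs2 peaks lay far downstream on chromosome 17, at 54.1 kb (14611215 to 14611388, score 59.6) and 89.0 kb (14576406 to 14576522, score 64.6). The noncoding gene Gm34916 was nearer to the second, at 53980 bp. Tnc had 3 peaks and none inside the gene. One lay 1.14 kb upstream of the start site (chromosome 4, 64048156 to 64048274, score 53.9), one 1.02 kb beyond the other end (63958639 to 63958765, score 61.7) and one 29.8 kb beyond it (63929893 to 63929997, score 57.8). All 3 scored below the list's median of 77.0, and the upstream peak also lay inside the span of the noncoding gene 8030451A03Rik.

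The start regions of Tnc and Thbs2 are printed for contrast, Tnc because of its upstream peak and Thbs2 because it holds the only match to the MEF2 consensus among the 31 matrix genes with a promoter window. Both are on the minus strand, at chr4:64047016-64047265 and chr17:14694263-14694512, and are given from RefSeq (GRCm38.p6) as the 250 bases before the start site, with the MEF2 match in capitals.
Tnc: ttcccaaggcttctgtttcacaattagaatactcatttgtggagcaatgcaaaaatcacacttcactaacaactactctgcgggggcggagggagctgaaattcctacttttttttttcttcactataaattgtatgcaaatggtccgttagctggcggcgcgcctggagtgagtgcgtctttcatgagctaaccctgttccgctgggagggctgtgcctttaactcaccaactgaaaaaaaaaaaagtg
Thbs2: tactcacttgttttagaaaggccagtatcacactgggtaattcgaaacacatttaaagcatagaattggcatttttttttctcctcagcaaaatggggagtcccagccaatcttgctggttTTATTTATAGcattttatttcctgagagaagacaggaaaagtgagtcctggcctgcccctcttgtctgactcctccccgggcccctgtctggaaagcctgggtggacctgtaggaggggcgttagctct

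The match in Thbs2 ran from 129 to 120 bases before the start site. The nearest peak was 82.9 kb from that start site, so the match and the peaks of this gene were far apart. Promoter windows of 250 bases before and 50 after a start site were searched on both strands for the MEF2 consensus, the AP-1 site TGANTCA and the CArG box of serum response factor. Over 36 windows of 31 matrix genes, each motif was found in 1 window (2.78%). The shares over all 32851 windows in the table were 3.19% for MEF2, 7.81% for AP-1 and 1.63% for CArG. The AP-1 match was in Col6a1, starting 90 bases before the start site, and the CArG match in Lama2, starting 39 bases before it. The 3 matches lay in different genes, so none overlapped another. A match is a description of the letters, and no genome sequence was used to search the peaks themselves.

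**Figure D3:**
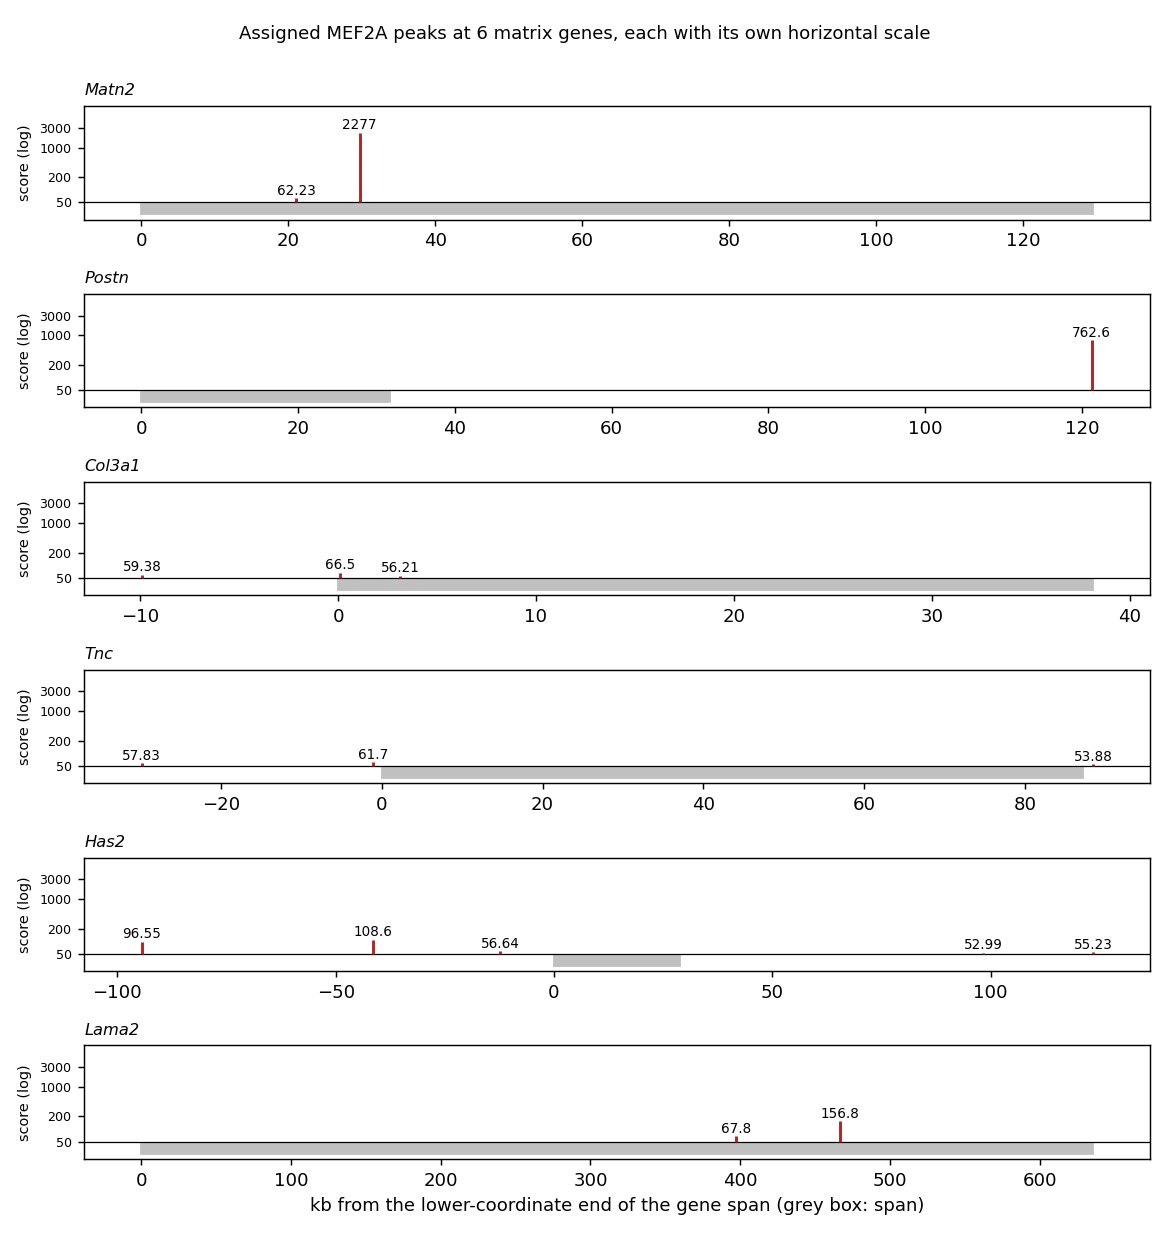
Assigned peaks (red lines, height on a log scale with the score printed) at Matn2, Postn, Col3a1, Tnc, Has2 and Lama2, against the distance in kb from the lower-coordinate end of each gene span (grey box). Matn2 and Lama2 hold their peaks inside the span, Postn, Tnc and Has2 have theirs outside, and Col3a1 has both kinds.

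Matrilins, adaptor proteins of filamentous matrix networks, had peaks at 3 of 4 genes, against 0.310 expected. Matn2 held the strongest peak of all matrix genes (chromosome 15, 34336048 to 34336694, score 2277, width 647 bp), 29.4 kb from the lower end of its span of 129.6 kb. A weak peak of 62.2 lay in the same gene (34327650 to 34327802), 21.0 kb from that end. Matn3 held a weak peak of 61.8 (chromosome 12, 8962072 to 8962222), and Matn4 had one of 63.0 at 2.98 kb downstream (chromosome 2, 164386282 to 164386413). On the other side of Matn4, 27.6 kb away, a peak of 62.1 lay inside Sdc4. Matn3 and Matn4 have short territories, of 29.7 and 32.2 kb, in a class where 2.56% of all genes had a peak. Matn1 had none, and the nearest peak was 1114 kb away. The high score in this family thus rests on Matn2 alone.

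Crosslinking enzymes of the lysyl oxidase family, which lead collagen and elastin chains to link covalently to one another, had weak peaks at 2 of 3 genes. The number expected was 0.249. Lox had a pair of peaks 806 bp apart, 5.90 and 6.82 kb beyond the upper end of the span (chromosome 18, 52535768 to 52535881 and 52536688 to 52536796), with scores of 55.2 and 56.6. The pseudogene Gm18151 was nearer to both, at 1455 and 2375 bp. Loxl1 held a peak of 60.0 inside the span (chromosome 9, 58299471 to 58299568), and another of 66.8 at 96.2 kb was nearer to Islr2. Loxl2 had no peak within 1508 kb. Of the elastic fibre genes these enzymes act with, none of 3 had a peak, against 0.650 expected. The nearest peak was 97.2 kb from Fbn1 (score 180.9, inside Cep152), 195.4 kb from Eln and 345.2 kb from Fbn2, which encode fibrillin-1, elastin and fibrillin-2.

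Proteoglycans gave no peak in 4 genes, against 0.363 expected, so a count of 0 is near that number. Decorin and lumican, small leucine-rich proteoglycans that control fibril assembly, are encoded by neighbours 47.3 kb apart, and the same peak was nearest to both, 208.5 kb from Dcn and 153.9 kb from Lum. For Bgn, the gene of the related biglycan, the distance was 750.0 kb. Vcan, encoding the large proteoglycan versican, was 59.0 kb from a peak of 194.5 that was nearer to Xrcc4.

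Hyaluronan synthases make the polysaccharide hyaluronan at the cell surface, and 1 of 3 genes had peaks, against 0.313 expected. Has2 had 5, the most of any matrix gene, all outside its span of 28.9 kb and spread over 218.1 kb of chromosome 15. On the lower side the scores were 56.6 at 12.3 kb (56653201 to 56653309), 108.6 at 41.4 kb (56624153 to 56624269) and 96.6 at 94.4 kb (56571126 to 56571275). On the upper side they were 53.0 at 69.3 kb (56763877 to 56763995) and 55.2 at 94.5 kb (56789066 to 56789179). The lower side thus held the 2 stronger peaks. Both peaks of the upper side were nearer to other annotated features. That of 53.0 lay inside the noncoding gene Gm41327, and that of 55.2 lay 5636 bp from the pseudogene Gm5673. Has2 sits in a territory of 228.9 kb, in the class where 26.6% of all genes had a peak. Has1 and Has3 had none, with the nearest peaks 179.3 kb and 74.3 kb away, the latter (score 119.7) inside Sntb2.

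Among proteases and inhibitors, 2 of 6 genes had a peak, against 0.423 expected. Timp3 encodes a matrix-bound inhibitor of metalloproteinases, and its peak (chromosome 10, 86313623 to 86313813, score 94.1) lay 13.2 kb from the start site. It is also inside Syn3, within which Timp3 is nested, and was counted for both. Adamts1 encodes a protease that cleaves proteoglycans, and its peak (chromosome 16, 85793527 to 85793642, score 54.7) lay 185 bp beyond the downstream end of the gene. Its neighbour Adamts5 held a peak of 110.3, 95.5 kb from Adamts1. Timp1 (40.8 kb from a peak of 62.3 inside Araf), Timp2 (320.8 kb), Mmp14 (204.2 kb) and Mmp2 (1018 kb) had no peak.

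The peaks were spread over and around the genes, without a common position. Of the 34, 17 (50%) lay inside a span, against 57.0% of all assigned peaks. Of the 17 outside, 7 were within 10 kb, 4 between 10 and 50 kb and 6 beyond 50 kb. Peaks inside spans had a median score of 75.8 and those outside 57.8. Within 1 kb of an end of the span lay 4 peaks (11.8%), those of Thbs1, Col3a1, Adamts1 and Col1a1, against 8.03% of all assigned peaks. Of the 22 genes, 18 had a peak within 10 kb, against 5.33 expected at that limit. A peak that overlapped the span was found at 14, against 4.46 expected.

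Of the 28 genes without a peak, 6 were within 100 kb of a peak nearer to another gene, Col4a1, Col8a1, Fbn1, Vcan, Has3 and Timp1. For 6 more the nearest peak lay between 100 and 200 kb, for 5 between 200 and 500 kb, and for 11 farther than 500 kb, 7 of these beyond 1 Mb. Genes just inside the limit were Postn at 89.2 kb and, by their farthest peaks, Thbs2 at 89.0 kb and Has2 at 94.5 kb. The nearest outside it was Nid1 at 125.4 kb. Median territory was 151.3 kb for the genes with a peak and 121.7 kb for those without.

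By class of territory length, matrix genes had the higher share in 6 of the 8 classes that held any, and none had a peak in classes 1 and 3, with 1 and 2 genes. In the 2 classes of longest territory, from 130.5 kb, 15 of 28 matrix genes (53.6%) had a peak, against 20.4% of all genes there. In the 8 shorter classes the count was 7 of 22 (31.8%), against 4.55%, with 12 of those 22 genes in classes 7 and 8, where 7.77% and 11.7% of all genes had a peak. By single class the counts were small, from 1 to 17 matrix genes where there were any.

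**Figure D4:**
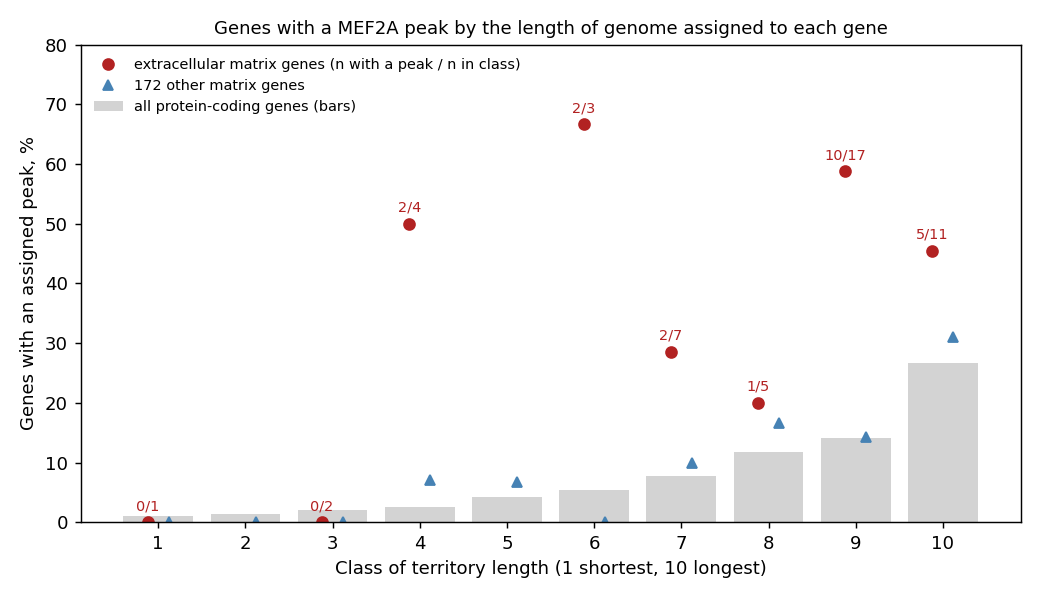
Share of genes with an assigned peak (%) by class of territory length (1 shortest, 10 longest) for all protein-coding genes (bars), the 50 matrix genes (red circles, with the number having a peak over the number in the class) and 172 other matrix genes (blue triangles). The red circles lie above the bars in the 6 classes that hold a matrix gene with a peak, at 10 of 17 in class 9 and 5 of 11 in class 10, while the triangles follow the bars more closely.

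Genes of matrix and related families outside the 50 were nearer to the number given by their territory when peaks of any score counted. This did not hold at a score of at least 200, where only 2 of the 50 were left. A second list of 172 genes of the same and related families included 18 TGF-beta signalling genes. It had 23 genes with a peak (13.4%), against 20.1 expected, a ratio of 1.14. In the 2 classes of longest territory its share was 16 of 63 (25.4%). The 23 genes had a median highest score of 116.3, above the 71.2 of the 22 genes with a peak among the 50. The strongest single peak was still that of Matn2, in the first list. At a score of at least 100 there were 12 (6.98%), against 3.46% of all genes and 9.39 expected, a ratio of 1.28. At 200 there were 8 (4.65%), against 1.52% of all genes and 4.15 expected. That ratio of 1.93 was above the 1.42 of the 50 genes. The ratio rose with the score in the second list and fell in the first. The 1.42 rests on 2 genes, and Col4a2, at 199.5, lay just below the limit. The order of the lists at 200 thus depends on 1 gene. The difference between the lists was not tested.

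By family, other collagens gave 7 of 30 (4.54 expected), led by Col19a1 with a peak of 1283 at 23.6 kb and Col4a6, a type IV chain, with one of 163.8. Other laminins and basement membrane genes gave 2 of 13 (1.52 expected), among them Npnt (116.3), which encodes the integrin ligand nephronectin. Other proteoglycans gave 4 of 22 (2.15 expected), led by Sdc2 (502.0), a syndecan, and Gpc1 (282.0), a glypican. Other glycoproteins and elastic fibre genes gave 1 of 33 (3.58 expected), Ltbp1 (388.4), which encodes a latent TGF-beta binding protein. Of these 4 families, only the glycoproteins were below their expected number, and the counts are small.

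Other proteases and inhibitors gave 4 of 37 (4.40 expected), with Adamts6 (612.8) and Adamts16 (222.0) highest. Collagen-modifying genes gave 3 of 19 (1.61 expected), with the transglutaminase gene Tgm2 (393.1) and the lysyl hydroxylase gene Plod2 (144.9) highest. TGF-beta signalling, the main known inducer of matrix genes, gave 2 of 18 (2.34 expected), Tgfb2 (55.8) and Smad3 (51.5), both among the weakest peaks of the list.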

How the data were processed

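For the C2C12 MEF2A library the authors deposited a peak list without a header, with the position of each peak and its score. Per the submitters' processing notes, MACS 1.4.2, BWA 0.5.9, CASAVA 1.7.0, SAMtools and Picard were used, with the builds mm10 and rn5. Settings, the scale of the score and any use of the IgG library as control are not given in the sources used here. Scores were used only to rank and filter peaks within the list. Sites weaker than those listed are not seen, and no depth or counting interval could be given.

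Peak starts were read as 0-based and are printed 1-based. Gene spans were those of RefSeq on GRCm38.p6 (mm10), and start sites were read from RefSeq promoter windows, which held 31 of the 50 genes. A peak inside more than 1 span counted for all of them, and 2303 of 2797 peaks (82.3%) were assigned. A territory is the span plus flanks up to 100 kb or the midpoint to the next span. The expected count sums, over genes of a list, the share of all genes in each gene's territory class that had a peak. Members, subgroups, lists and motifs were chosen with earlier results of these data known. All 50 genes are named. Outside the 50, the text names the up to 2 highest-scoring genes of each family of the 172, and genes that take a peak within 100 kb of a member, except 1 gene that is not reported here. Assignment and territories were tested on simulated data. Python 3.11.15, numpy 2.4.6, pandas 2.3.3 and matplotlib 3.10.9 were used. The rat and IgG libraries were not analysed here.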

Additional observations from a re-analysis of the deposited data

How the results depend on the processing

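The count of 22 matrix genes changed most with the score required. It was 8 at a score of at least 100 and 2 at 200, from 8 and 2 peaks in place of 34, against 3.15 and 1.41 expected from territory. The other matrix genes then numbered 12 and 8 in place of 23. With only peaks that overlap the span, 14 matrix genes and 17 peaks were left, against 4.46 expected. Limits of 50 and 10 kb gave 20 and 18 genes (6.65 and 5.33 expected). Merging peaks under 1 kb apart gave 22 (6.79 expected). The nearest end of a span gave 21 (6.41 expected), without Lama2. When all annotated spans competed, 19 matrix genes had a peak (4.65 expected), without Col6a3, Lox and Postn. Every setting kept a subset of the 22 genes and none added one. A higher score, a shorter limit, required overlap or more competing spans can only remove genes, so for them this was fixed in advance. The observed count stayed above the expected one in all of the settings, with ratios from 1.42 (score of at least 200) to 4.08 (all annotated spans). With 20 or 5 territory classes the expected number was 6.43 or 7.18. The median highest score stayed at 71.2 with limits of 50 and 10 kb and with merging. With 1 library, no replicate shows which of the weak peaks recur.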
